A study of Mus musculus with 23 samples.

Results

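A set of 5 microRNAs with published roles in vessel growth was followed in mouse lung cells before and after birth: miR-221-3p (MIMAT0000669), miR-222-3p (MIMAT0000670), miR-218-5p (MIMAT0000663), miR-139-5p (MIMAT0000656) and miR-132-3p (MIMAT0000144). They were chosen by identifier, and all 5 were found among the 602 microRNA probes of the deposited table. Total RNA of sorted lung cells was read on an nCounter mouse microRNA panel, an assay that counts colour-coded probes one by one without amplification. All mice were wild-type C57BL6 animals with no treatment named in the labels. Samples labelled type II pneumocyte (AT2, the surfactant-making cells of the alveolus) carry the surface marker CD326 in their descriptions. Those labelled endothelial cell (EC) carry CD31. The labels use the type II name at every age, and whether the sorted cells were of 1 kind throughout was not tested. Both cell types were sampled at 6 stages. Before birth these were E16.5 and E18.5 (embryonic days), and after birth P1, P7, P14 and P28 (days of age). The 13 AT2 samples were 2 per stage plus 1 more at P28. The 10 EC samples were 2 per stage, with a single one for E18.5 and for P1.

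A microRNA guides a silencing complex to messenger RNAs whose sequence pairs with its seed, bases 2 to 8 counted from its 5′ end, and lowers their output. In human endothelial cells miR-221 and miR-222 are known to repress the stem cell factor receptor KIT and to restrain migration and tube formation, and in human tumour cells both repress the cell cycle inhibitor CDKN1B. miR-218 lies inside genes for SLIT ligands and represses ROBO receptors of the same guidance pathway, a pathway that also patterns vessels. miR-139-5p is encoded in the phosphodiesterase gene Pde2a and is known in human tumours to repress CXCR4 and IGF1R, both receptors linked to migration and growth. miR-132 is induced by the transcription factor CREB and, in human endothelial cells, represses the RAS brake RASA1, a step that favours sprouting. The lung's capillary bed is built and remodelled through the stages sampled here, while type II cells mature around birth.

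The mature sequences are shown because 2 of the 5 members share a seed and because each probe reads 1 of them. The sequences and positions are those of RefSeq on GRCm38.p6, in which all 5 names were found. Capitals mark the seed.
miR-221-3p: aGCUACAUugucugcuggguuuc
miR-222-3p: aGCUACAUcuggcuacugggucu
miR-218-5p: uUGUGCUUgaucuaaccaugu
miR-139-5p: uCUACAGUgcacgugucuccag
miR-132-3p: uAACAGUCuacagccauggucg
miR-212-3p: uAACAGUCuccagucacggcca

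miR-221-3p (chrX:19146307-19146329, minus strand) and miR-222-3p (chrX:19146901-19146923, minus strand) come from neighbouring hairpins with 504 bases between them. They are identical over their first 8 bases and differ at 12 of 23 positions, all after the seed. In the table of mature mouse sequences the seed GCUACAU was held by 3 entries, these 2 and miR-1928. miR-218-5p is made from 2 hairpins with the same mature sequence, at chr5:48223966-48223986 within the span of Slit2 and at chr11:35616840-35616860 within the span of Slit3, both on the plus strand, so the panel cannot tell the 2 sources apart. miR-139-5p (chr7:101475382-101475403, plus strand) lies within the span of Pde2a, and no other mature entry shares its seed. miR-132-3p (chr11:75173723-75173744, plus strand) comes from a hairpin with 203 bases between it and the hairpin of miR-212. The 3p product of miR-212 shares the seed and the first 9 bases of miR-132-3p. miR-212-3p is shown for that reason and was not measured by name here, since the files and the reference tables pair no other identifier with a name.

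The deposited values are counts multiplied by 1 factor per sample, and the counts were recovered from them. Recovered microRNA counts per sample ranged from 26640 in AT2 P28 replicate 1 to 571724 in EC P1 replicate 1, and EC E18.5 replicate 1 had 36373. A value was called above background when its count exceeded the mean plus 2 SD of 8 low control probes in the same sample. In value units this limit ranged from 6.16 to 95.1, and it was higher in samples with a larger factor. In AT2 P28 replicate 1 the 6 graded controls summed to 2190 counts, against 10764 to 42704 in the other samples, and its limit was only 1 count. For all 23 samples the highest correlation was with one of the same cell type. In EC, 3 samples stood apart by a measure that left them out of its EC reference. The EC level was the mean of the other 7 EC samples, and AT2 minus this mean also chose the microRNAs used. These 7 therefore lie near the EC level by construction, and the split is a description. Over 31 other microRNAs at least 4-fold lower in AT2 cells, EC P14 replicate 2 lay 54.1% of the way to the AT2 level on the log2 scale, EC P1 replicate 1 lay 26.9% and EC P28 replicate 2 lay 12.4%, against -13.8% to 9.17% in the other 7. Over 17 others at least 4-fold higher in AT2 cells they lay at 77.8%, 47.6% and 57%, against -21.9% to 32.9%. EC P28 replicate 2 is thus set off by the second group of microRNAs and hardly by the first. Cell type differences and EC changes with age are given with and without these 3. Without them EC has no P1 sample, so those fitted cell type differences leave P1 out on both sides. Markers of the sorted cells could not be checked by name, and in sorted RNA fewer cells of a type and less RNA per cell cannot be told apart.

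All 5 members were above background in at least 2 samples, so all 5 were among the 302 microRNAs tested. miR-139-5p passed this filter only through EC samples and miR-222-3p only through AT2 samples. The test was limma on log2(value + 1) with Benjamini-Hochberg adjusted p-values over the 302 microRNAs, and differences are on that scale. Over the mean of the 6 stages, 3 of the 5 members differed between the cell types, beside 67.2% of all tested microRNAs, 19.5% higher in AT2 cells and 47.7% lower. miR-139-5p and miR-132-3p were lower in AT2 cells than in EC, and miR-221-3p was higher. miR-222-3p and miR-218-5p did not pass the test. Since miR-139-5p entered only through the cell type where it is high, the count is a description. The median difference of the members, AT2 minus EC, was 0.09, and that of all tested microRNAs was -0.43.

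**Figure D1:**
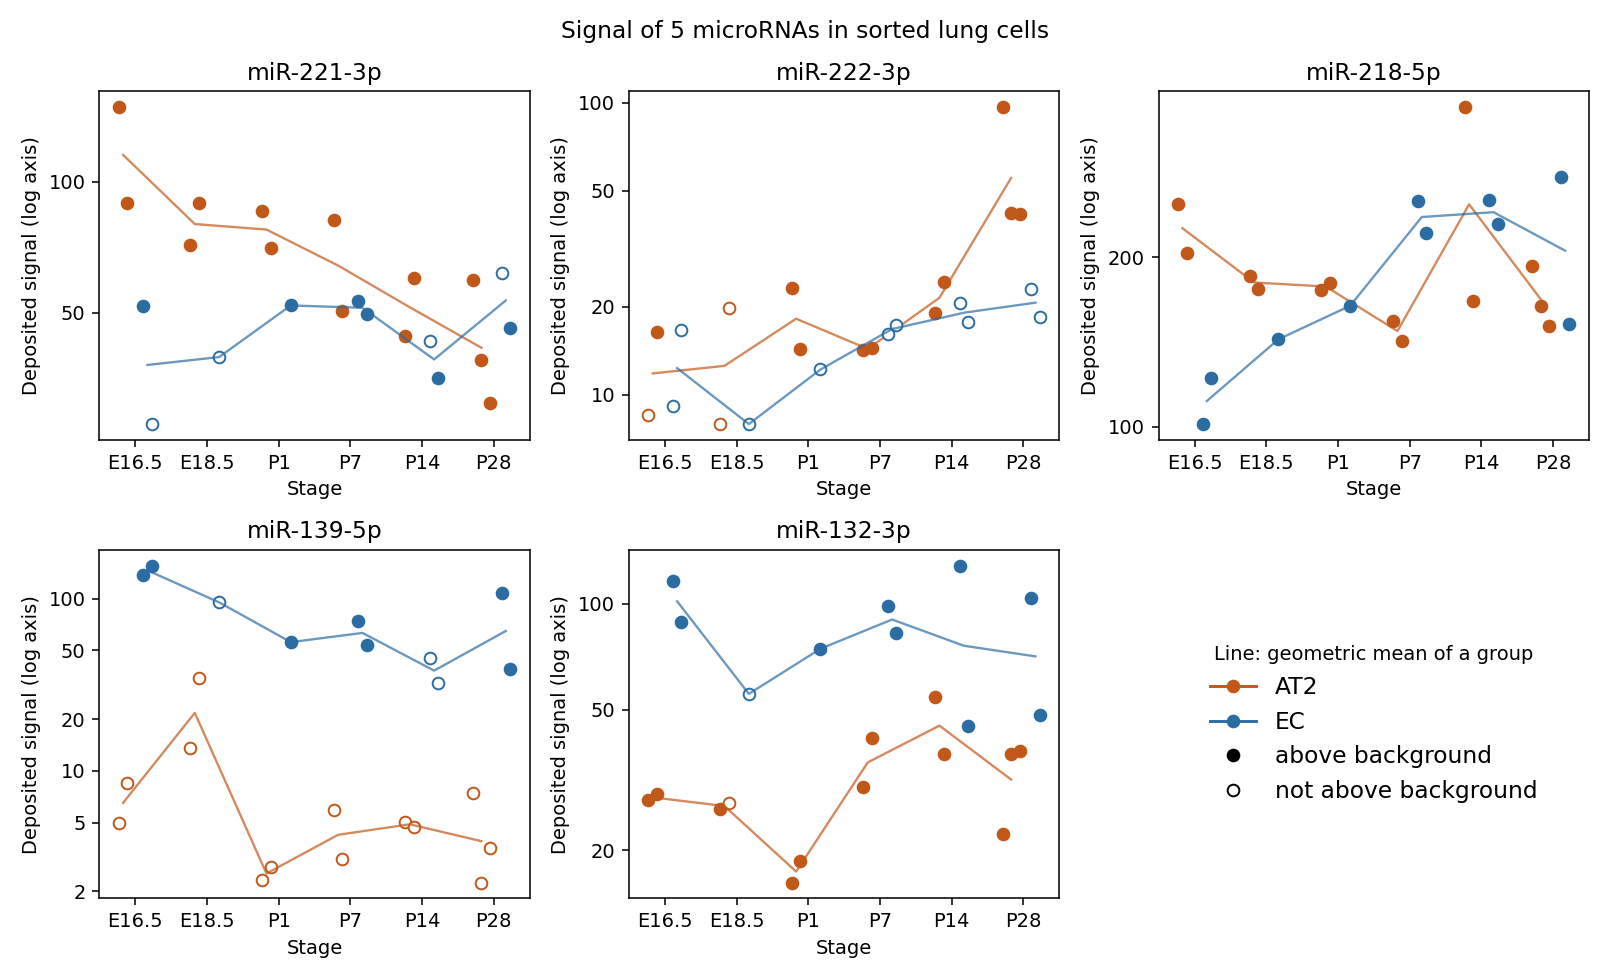
Deposited value (count times sample factor, log axis) of each of the 5 microRNAs in every sample, by stage from E16.5 to P28, with AT2 samples left of EC samples. Points are single samples and lines join the geometric means of the stages; open circles are values not above their sample's background. miR-139-5p lies in the open range in all 13 AT2 samples, and miR-222-3p in all 10 EC samples.

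miR-139-5p was the member with the widest gap between the cell types. In AT2 cells 0 of 13 samples were above background, with values of 4.98 and 8.56 at E16.5, 13.6 and 34.7 at E18.5, 2.32 and 2.78 at P1, 5.91 and 3.07 at P7, 5.06 and 4.75 at P14, and 7.43, 2.25 and 3.58 at P28. In EC it was above background in 7 of 10 samples, with values of 137 and 155 at E16.5, 95.1 in the E18.5 sample, 55.9 in the P1 sample, 74 and 54.0 at P7, 45.3 and 32.2 at P14, and 108 and 39.0 at P28. The cell types overlapped in a single pair of samples, AT2 E18.5 replicate 2 at 34.7, where the scaled background was 26.6, and EC P14 replicate 2 at 32.2. All 6 EC stage means lay above all 6 AT2 stage means.

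Because miR-139-5p entered the test through EC alone, the fitted values are given as a description of readings that lie below background in AT2 cells. The difference, AT2 minus EC, was -3.40 ± 0.25 (SE), with a limma adjusted p of 7.01e-09, and -3.47 (adjusted p = 6.55e-08) without the 3 EC samples that stood apart. The geometric mean of the AT2 background limits was 12.5, and the EC geometric mean was 69.9, a ratio of 5.59, or 7.00 without those 3 EC samples. This ratio is no strict bound, since 3 EC values that were not above background entered it as read. In each of the 9 specimen IDs that both cell types carry in their titles, miR-139-5p read lower in the AT2 sample.

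miR-132-3p was detected in both cell types and was lower in AT2 cells. AT2 values were 27.7 and 28.8 at E16.5, 26.1 and 27.3 at E18.5, 16.2 and 18.7 at P1, 30.2 and 41.7 at P7, 54.4 and 37.4 at P14, and 22.3, 37.5 and 38.2 at P28, above background in 12 of 13 samples. EC values were 116 and 88.8 at E16.5, 55.5 in the E18.5 sample, 74.5 in the P1 sample, 98.3 and 82.7 at P7, 128 and 45.1 at P14, and 104 and 48.3 at P28, above background in 9 of 10. EC P14 replicate 2 and EC P28 replicate 2, which stood apart above, were the only EC samples below the highest AT2 sample. At P14 and P28 the EC values therefore fell into a high one and a low one, and the low one was in each case the sample that stood apart.

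The difference for miR-132-3p, AT2 minus EC, was -1.34 ± 0.21 (SE), with a limma adjusted p of 2.94e-05, and -1.46 (adjusted p = 6.44e-06) without the 3 EC samples that stood apart. AT2 cells averaged 31.3 ± 10.4 (SD, n = 13) and EC averaged 84.1 ± 28.4 (SD, n = 10). With the 1 undetected AT2 value at its limit and the 1 undetected EC value as read, the EC geometric mean was 2.53-fold higher, and 2.97-fold higher without the 3 EC samples. Within specimen IDs miR-132-3p was lower in the AT2 sample of 8 of 9. The exception, a difference of 0.27, paired AT2 P14 replicate 1 with EC P14 replicate 2. When all samples were divided by their microRNA totals the difference was -0.56 (adjusted p = 0.0471, limma). Raising every value to the highest background limit of any sample, 95.1, which 4 EC values and 0 AT2 values of this microRNA exceed, gave -0.07 (adjusted p = 0.312).

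**Figure D2:**
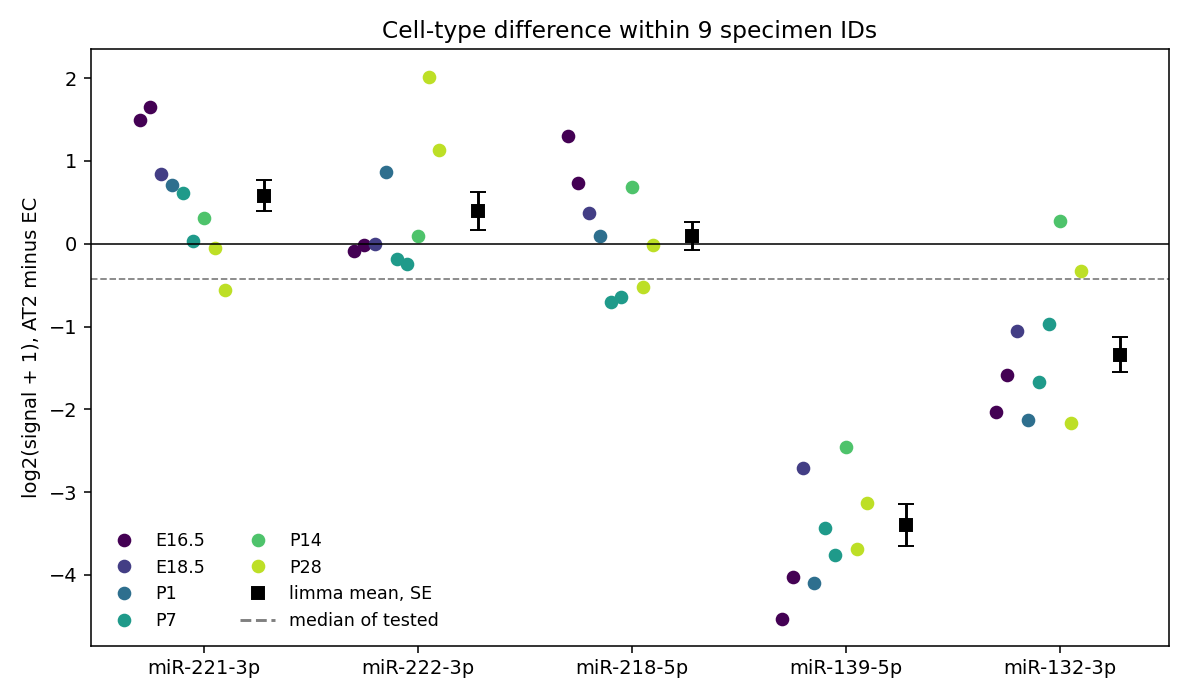
AT2 minus EC, in log2 units, for each microRNA: the limma estimate over 6 stages with its SE, and, coloured by stage, the difference within each of the 9 IDs that link an AT2 sample to an EC sample. The dashed line is the median of all tested microRNAs, -0.43. miR-139-5p lies below 0 in all 9 IDs and miR-132-3p in 8, while miR-221-3p, miR-222-3p and miR-218-5p lie on both sides of 0; the miR-222-3p and miR-218-5p estimates pass the test under a scaling to equal sample medians (0.75 and 0.44), and not with the deposited scaling (0.40 and 0.09).

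miR-221-3p was the only member with a higher fitted mean in AT2 cells that passed the test. Its AT2 values were 148 and 89.5 at E16.5, 71.6 and 89.2 at E18.5, 85.7 and 70.3 at P1, 81.6 and 50.5 at P7, 44.2 and 60.0 at P14, and 59.5, 39.0 and 31 at P28, all 13 above background. Its EC values were 51.9 and 27.8 at E16.5, 39.6 in the E18.5 sample, 52.0 in the P1 sample, 53.2 and 49.6 at P7, 43.2 and 35.4 at P14, and 61.7 and 46.2 at P28, of which 6 of 10 were above background. As read, every AT2 value was above every same-stage EC value for E16.5, E18.5, P1 and P14. The EC E18.5 sample was undetected, and its limit of 95.1 exceeded both AT2 values of that stage. EC P14 replicate 1 was also undetected, and its limit of 69.7 exceeded both AT2 P14 values. The separation is therefore not resolved for E18.5 and P14. EC E16.5 replicate 2 was undetected too, but its limit of 39.2 lay below both AT2 values of its stage. The cell types overlapped at P7, by values of 50.5 in AT2 cells and 53.2 in EC, and at P28.

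Over all stages the difference for miR-221-3p was 0.58 ± 0.19 (SE), AT2 minus EC, with a limma adjusted p of 0.0118, and 0.51 (adjusted p = 0.0437) without the 3 EC samples that stood apart. With undetected EC values at their limits, the AT2 geometric mean was at least 1.22-fold higher. The call was lost with specimen ID as a fixed block over the 9 shared IDs (0.56, limma adjusted p = 0.0588). Within specimen IDs it was 1.49 and 1.65 at E16.5, 0.84 in the E18.5 pair and 0.71 in the P1 pair, against -0.05 and -0.56 at P28. With all values raised to the highest background limit it was 0.05 (limma adjusted p = 0.625). Only AT2 E16.5 replicate 1, at 148, exceeds that limit of 95.1, so that setting cannot test the difference.

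miR-222-3p, which shares the seed of miR-221-3p, had another pattern. In AT2 cells its values were 8.53 and 16.4 at E16.5, 7.96 and 19.8 at E18.5, 23.2 and 14.3 at P1, 14.2 and 14.5 at P7, 19.0 and 24.3 at P14, and 96.6, 42.0 and 41.7 at P28. In EC the values were 9.16 and 16.6 at E16.5, 7.93 in the E18.5 sample, 12.2 in the P1 sample, 16.2 and 17.4 at P7, 20.6 and 17.7 at P14, and 23.1 and 18.5 at P28. It exceeded the background in 10 of 13 AT2 samples, among them all from P1 on, and in 0 of 10 EC samples. The 3 AT2 samples at P28 were the 3 highest of the 23, and no other group reached them.

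The AT2 minus EC difference of miR-222-3p over 6 stages, 0.40 ± 0.23 (SE), did not pass the test (adjusted p = 0.130, limma), nor did it without the 3 EC samples that stood apart (0.32, adjusted p = 0.30). It passed under 3 other scalings, at 0.75 with equal sample medians (adjusted p = 0.00397), 1.02 with quantile scaling (2.96e-04) and 1.15 with values divided by the microRNA total (0.00378). It also passed with edgeR on the recovered counts, at 0.77 (0.0198). Since miR-222-3p entered the test through AT2 samples alone and its EC values were not above background, these results are a description. Within specimen IDs the difference was 2.02 and 1.13 at P28, 0.87 at P1, and between -0.25 and 0.09 at the other stages.

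miR-218-5p was above background in all 23 samples. Its AT2 values were 249 and 204 at E16.5, 185 and 176 at E18.5, 175 and 180 at P1, 154 and 142 at P7, 370 and 167 at P14, and 193, 164 and 151 at P28. Its EC values were 101 and 122 at E16.5, 143 in the E18.5 sample, 164 in the P1 sample, 252 and 221 at P7, 253 and 229 at P14, and 278 and 152 at P28. AT2 samples were above EC samples at E16.5, E18.5 and P1, and below them at P7. The difference over all stages, AT2 minus EC, was 0.09 ± 0.17 (SE) and did not pass the test (adjusted p = 0.620, limma), and it was -0.01 (adjusted p = 0.953) without the 3 EC samples that stood apart. It passed at 0.44 with equal sample medians (0.0298), at 0.89 with values divided by the microRNA total (0.00589) and at 0.46 with edgeR (0.0181).

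The change with age was taken as the mean of P7, P14 and P28 (late) minus the mean of E16.5 and E18.5 (early), with P1 on neither side. In AT2 cells 3 of the 5 members passed the test, beside 51.3% of all tested microRNAs, 11.3% higher late and 40.1% lower. miR-222-3p was higher late, with only 1 of its 4 early values above background, and miR-221-3p was lower. The other call was miR-139-5p, which was above background in 0 of 13 AT2 samples, so its call rests on undetected values and no change is read from it. The median late minus early difference of all tested microRNAs in AT2 cells was -0.64, so changes are read beside that value. The median of the members was -0.13.

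**Figure D3:**
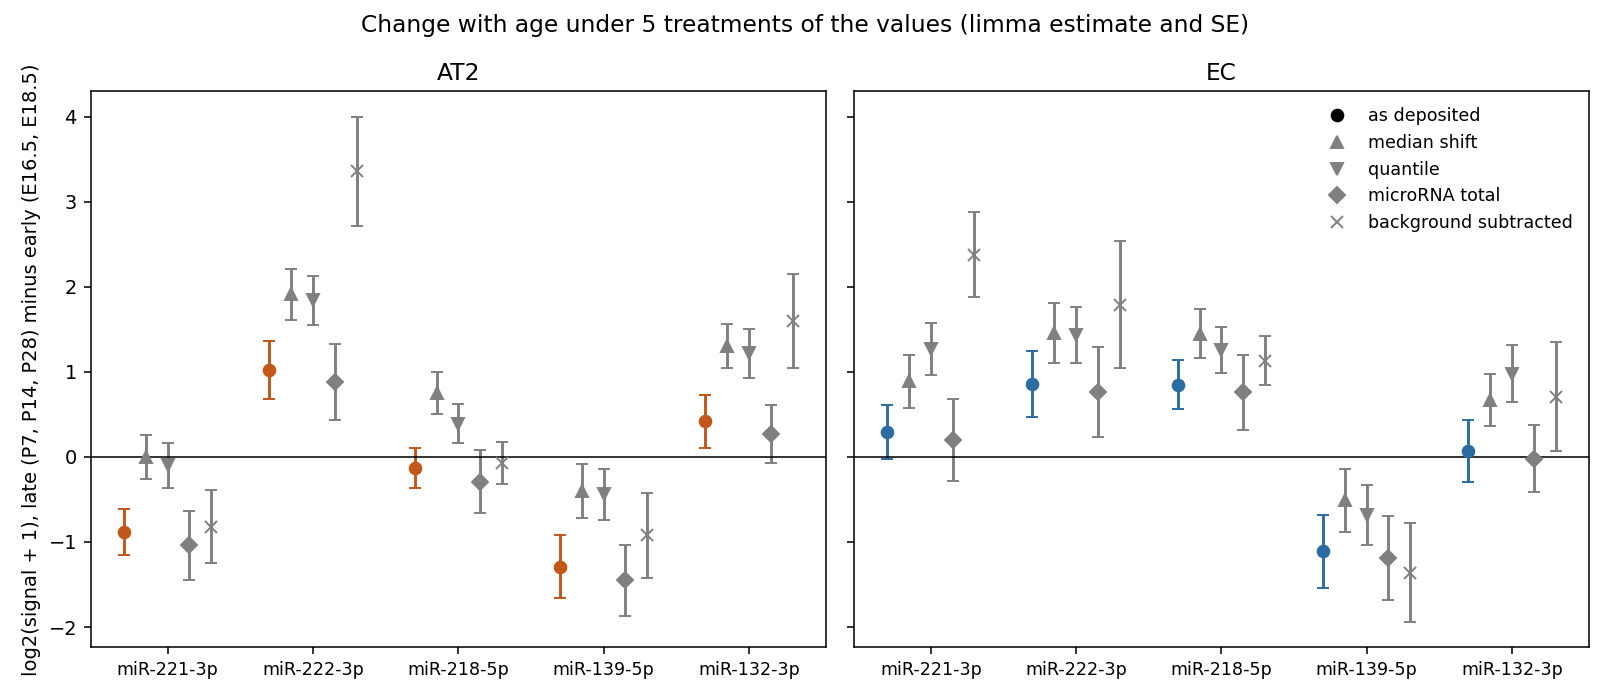
Late (P7 to P28) minus early (E16.5 and E18.5) limma estimate with its SE, in log2 units, for each microRNA in AT2 cells (left panel) and in EC (right panel). Coloured circles use the values as deposited and grey symbols 4 other treatments of the values, named in the legend. miR-222-3p lies above 0 and miR-139-5p below 0 under all 5 in both cell types; the AT2 value of miR-221-3p moves to 0.00 with equal sample medians (median shift) and that of miR-218-5p turns to 0.75.

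miR-222-3p rose in AT2 cells, with a late minus early difference of 1.02 ± 0.34 (SE) and a limma adjusted p of 0.0185. Late samples averaged 36.1 ± 29.2 (SD, n = 7) and early samples 13.2 ± 5.86 (SD, n = 4), and their ranges overlapped. The rise lay mostly at P28, where the mean was 60.1 ± 31.6 (SD, n = 3), against 21.6 at P14 and 14.3 at P7. With undetected early values at their limits, the P28 geometric mean was at least 2.47-fold above the early one. Leaving out AT2 P28 replicate 1, whose 96.6 rests on 13 counts, the bound was 1.87-fold. The F-test for any difference among the 6 AT2 stages also passed for miR-222-3p (F = 5.81, limma adjusted p = 0.00784), beside 49.0% of all tested microRNAs. Only 1 of the 4 early AT2 samples was above background, against all 7 late ones. miR-222-3p thus met the filter mainly where it was high, and both test results are a description.

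The late minus early call for miR-222-3p in AT2 cells was lost without AT2 E16.5 replicate 1 (0.81, limma adjusted p = 0.104), without AT2 E18.5 replicate 1 (0.72, adjusted p = 0.107) and with values divided by the microRNA total (0.88, adjusted p = 0.113). The F-test call was lost without AT2 P28 replicate 1 (F = 3.47, limma adjusted p = 0.0553) and with values divided by the microRNA total (F = 1.5, adjusted p = 0.327). With all values raised to the highest background limit, 95.1, the results were 0.00 and F = 0.902. Only the 96.6 of AT2 P28 replicate 1 exceeds that limit, so neither call could be kept there and that setting tests neither.

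miR-221-3p moved the other way in AT2 cells on the deposited scale. Late samples averaged 52.3 ± 16.7 (SD, n = 7) and early samples 99.6 ± 33.3 (SD, n = 4), and only AT2 P7 replicate 1, at 81.6, was as high as an early sample. The late minus early difference was -0.88 ± 0.27 (SE), with a limma adjusted p of 0.0134, and it was 0.00 (adjusted p = 0.987) with equal sample medians, -0.10 (0.788) with quantile scaling, -0.29 (0.336) with edgeR and -0.82 (0.156) with background subtracted. It was -0.70 (adjusted p = 0.0826, limma) without AT2 E16.5 replicate 1 and -0.80 (0.0583) without AT2 E18.5 replicate 2. Raising all values to the highest background limit gave -0.16 (limma adjusted p = 0.225). Only AT2 E16.5 replicate 1, at 148, exceeds that limit, so that setting cannot test the change. The F-test among AT2 stages did not pass for miR-221-3p (F = 3.23, adjusted p = 0.0580).

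The ratio of miR-222-3p to miR-221-3p within a sample does not depend on the sample factor, and it is given as a description. In AT2 cells it was 0.0577 and 0.183 at E16.5, 0.111 and 0.222 at E18.5, 0.270 and 0.203 at P1, 0.174 and 0.287 at P7, 0.428 and 0.406 at P14, and 1.63, 1.08 and 1.35 at P28. In EC it was 0.176 and 0.600 at E16.5, 0.200 in the E18.5 sample, 0.235 in the P1 sample, 0.304 and 0.351 at P7, 0.476 and 0.500 at P14, and 0.375 and 0.400 at P28. Only the 3 AT2 samples at P28 were above 1. In AT2 cells the mean log2 ratio was -0.80 ± 1.22 (SD, n = 7) in late samples and -2.98 ± 0.87 (SD, n = 4) in early ones. Every EC ratio rests on miR-222-3p values that were not above background, and so do those of 3 of the 4 early AT2 samples.

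**Figure D4:**
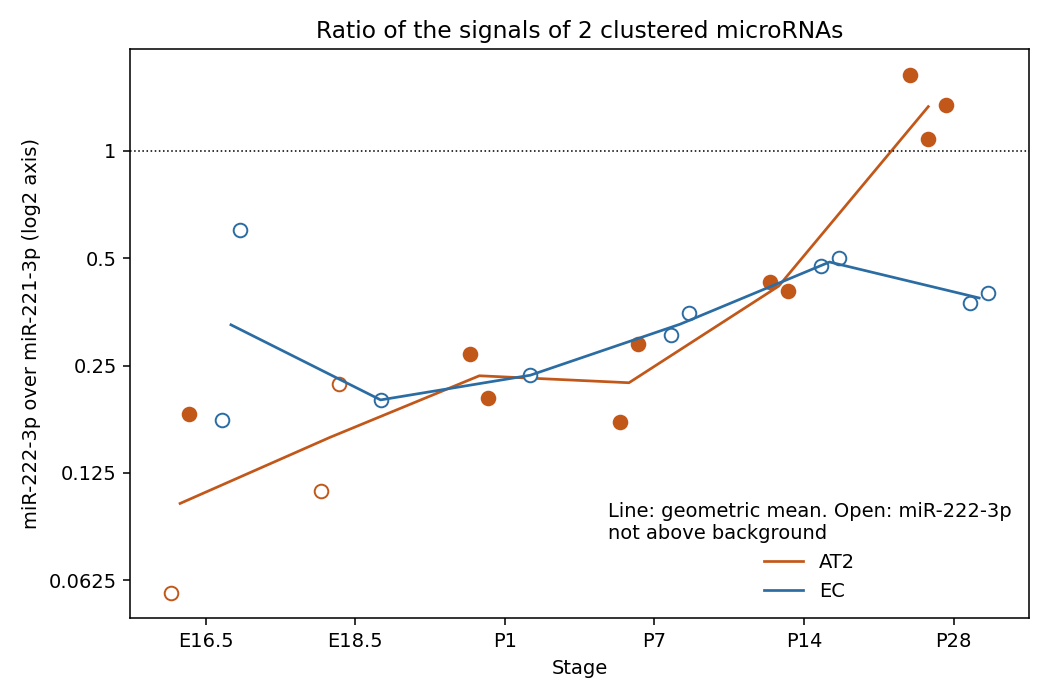
Ratio of miR-222-3p to miR-221-3p in each sample (log axis) by stage from E16.5 to P28, with AT2 samples left of EC samples and lines joining geometric means; open circles have miR-222-3p not above background. The AT2 ratio was 0.0577 to 0.222 before birth and 1.08 to 1.63 at P28, and all EC ratios lie between 0.176 and 0.600.

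miR-139-5p in AT2 cells had a late minus early difference of -1.29 ± 0.37 (SE, limma adjusted p = 0.00761), although 0 of the AT2 samples were above background. The scaled background, the mean of the low controls times the sample factor, was 2.88 to 8.20 in late AT2 samples and 7.29 to 26.6 in early ones. With all values raised to the highest limit, 95.1, the difference had to be 0.00, since the highest AT2 value was 34.7. With the scaled background subtracted the difference was -0.92 (limma adjusted p = 0.168). The call was also lost with equal sample medians (-0.40, limma adjusted p = 0.354), with quantile scaling (-0.44, 0.277) and without AT2 E18.5 replicate 2 (-0.96, 0.0674). miR-132-3p (0.42 ± 0.31, adjusted p = 0.252) and miR-218-5p (-0.13 ± 0.24, adjusted p = 0.653) did not pass the test in AT2 cells with the deposited scaling, and with equal sample medians they passed at 1.30 (5.70e-04) and 0.75 (0.0190), a turn of direction for miR-218-5p. miR-132-3p also passed with quantile scaling (1.22, limma adjusted p = 0.00258), with background subtracted (1.60, 0.0323) and with edgeR (1.08, 0.00194). Its early value in AT2 E18.5 replicate 2 was undetected, at 27.3 beside a scaled background of 26.6. Subtraction leaves almost nothing of that value, which limits the background-subtracted result.

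In EC, 2 of the 5 members passed the late minus early test, beside 37.1% of all tested microRNAs, 9.27% higher late and 27.8% lower. The median difference was 0.29 over the members and -0.57 over all tested microRNAs. miR-218-5p rose, with values of 152 to 278 in the 6 late EC samples and 101 to 143 in the 3 early ones, ranges that did not overlap. Late EC averaged 231 ± 43.5 (SD, n = 6) and early EC 122 ± 21.0 (SD, n = 3). The difference was 0.85 ± 0.29 (SE), with a limma adjusted p of 0.0307, and 1.01 (adjusted p = 0.0149) without the 3 EC samples that stood apart. It was 1.45 with equal sample medians (0.00114), 1.26 with quantile scaling (0.00165) and 1.38 with edgeR (0.00283). It was lost with values divided by the microRNA total (0.76, adjusted p = 0.189) and without EC E16.5 replicate 1 (0.78, 0.0817), EC E16.5 replicate 2 (0.91, 0.0535), EC P7 replicate 1 (0.81, 0.0627) or EC P28 replicate 1 (0.70, 0.0573).

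miR-139-5p fell in EC by a difference just inside the threshold, -1.11 ± 0.43 (SE, limma adjusted p = 0.0495). Late EC averaged 58.8 ± 28.1 (SD, n = 6) and early EC 129 ± 30.9 (SD, n = 3), and only EC P28 replicate 1, at 108, was as high as an early sample. Without the 3 EC samples that stood apart the difference was -0.79 (adjusted p = 0.183), with equal sample medians it was -0.51 (0.347), with quantile scaling -0.68 (0.149) and with edgeR -0.59 (0.237). The call was lost in 7 of 14 alternative settings, background subtraction among them, and in 15 of 23 fits that left out 1 sample, with differences from -1.42 to -0.87. Above background were 2 of the 3 early and 4 of the 6 late EC samples. The scaled background was 22.2 to 38.6 in early EC samples and 7.81 to 35.5 in late ones.

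The other members did not pass in EC with the deposited scaling. miR-222-3p had a late minus early difference of 0.86 ± 0.39 (SE, limma adjusted p = 0.0865), all of it from values not above background. miR-221-3p had 0.29 ± 0.32 (adjusted p = 0.483), and miR-132-3p had 0.07 ± 0.36 (adjusted p = 0.886). Without the 3 EC samples that stood apart the values were 0.94 (limma adjusted p = 0.117) for miR-222-3p, 0.40 (0.410) for miR-221-3p and 0.50 (0.222) for miR-132-3p. With equal sample medians miR-222-3p passed at 1.46 (0.00426) and miR-221-3p at 0.89 (0.0408). With quantile scaling miR-222-3p passed at 1.43 (0.00341), miR-221-3p at 1.27 (0.00494) and miR-132-3p at 0.98 (0.0397). With background subtracted miR-221-3p passed at 2.38 (limma adjusted p = 0.00213). Only 1 of the 3 early EC values of miR-221-3p was above background. In EC E18.5 replicate 1 its value of 39.6 stood beside a scaled background of 38.6, so its background-subtracted results rest on undetected early values. The F-test among the 6 EC stages passed for 0 of the 5 members, with adjusted p-values from 0.160 to 0.832 (limma), beside 27.2% of all tested microRNAs. For miR-218-5p it passed with equal sample medians (limma adjusted p = 0.0181), quantile scaling (0.0156) and edgeR (0.0206). For miR-139-5p it passed with a pseudocount of 10 (0.0342) and at the highest background limit (8.94e-06), for miR-221-3p with quantile scaling (0.0472) and background subtracted (0.00762), and for miR-222-3p with quantile scaling (0.0498). That limit sets most EC values of miR-139-5p equal, so its pass there describes only the few values above the limit.

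Whether the change with age differed between the cell types was tested as an interaction, the late minus early difference in AT2 cells minus that in EC. This passed for 0 of the 5 members, beside 6.29% of all tested microRNAs, 2.98% above 0 and 3.31% below it. The interaction of miR-221-3p was -1.17 ± 0.42 (SE, limma adjusted p = 0.135) and that of miR-218-5p was -0.98 ± 0.38 (adjusted p = 0.155). Both had a lower late minus early value in AT2 cells than in EC. Without the 3 EC samples that stood apart they were -1.28 (limma adjusted p = 0.0814) and -1.15 (0.0520). Those of miR-222-3p (0.17 ± 0.52, adjusted p = 0.923), miR-139-5p (-0.17 ± 0.56, adjusted p = 0.923) and miR-132-3p (0.35 ± 0.47, adjusted p = 0.797) were smaller than their errors. The miR-221-3p interaction passed with quantile scaling (-1.37, limma adjusted p = 0.0474) and with background subtracted (-3.21, 0.00679). Only 1 of its 3 early EC values was above background, so both passes rest in part on undetected values. The F-test for a cell type difference that varied with stage also passed for 0 of the 5, with adjusted p-values from 0.422 to 0.833 (limma), beside 1.32% of all tested microRNAs.

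Ordered by geometric group mean, the 5 members had different leading groups, given here with their arithmetic means. miR-139-5p was highest in EC at E16.5 (146 ± 12.7, SD, n = 2), clear of every other group. miR-132-3p was also highest in EC at E16.5 (102 ± 19.2, SD, n = 2), but it and the next groups, EC at P7, P14, P1 and P28, each overlapped with the one after it. miR-221-3p was highest in AT2 cells at E16.5 (119 ± 41.3, SD, n = 2). Its lower sample there, at 89.5, barely exceeded the higher AT2 E18.5 sample, at 89.2. From AT2 E18.5 on, each group overlapped with the next. miR-222-3p was highest in AT2 cells at P28, clear of AT2 P14. miR-218-5p was highest in AT2 cells at P14, where its 2 samples differed widely at 370 and 167, and lowest in EC at E16.5 (111 ± 15.1, SD, n = 2).

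The members did not move as 1 group. Over the 13 AT2 samples the Pearson r of log2 values between miR-221-3p and miR-222-3p was -0.56, and over the 10 EC samples it was 0.07. These are descriptions over samples that share stages and sample factors. By the same measure over all 23 samples, the probe most like miR-139-5p was MIMAT0000208 (r = 0.94), which was 0.76 within AT2 cells and 0.29 within EC. The nearest probe was MIMAT0009413 for miR-132-3p (r = 0.88), MIMAT0000133 for miR-222-3p (r = 0.76), MIMAT0000612 for miR-221-3p (r = 0.72) and MIMAT0000131 for miR-218-5p (r = 0.66). None of these has a name in the files or the reference tables, and no member was among the 3 nearest probes of another.

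As a share of all recovered microRNA counts, all 5 members were minor species. The median share of miR-218-5p was 0.113% in AT2 cells and 0.0620% in EC. miR-221-3p had 0.0407% in AT2 cells and 0.0143% in EC, and miR-222-3p had 0.0104% in AT2 cells and 0.00511% in EC. miR-132-3p had 0.0180% in AT2 cells and 0.0251% in EC, and miR-139-5p had 0.00271% in AT2 cells and 0.0217% in EC. Shares include the background counts, which differ between samples as described above.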

How the data were processed

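Total RNA of sorted cells was prepared with the nCounter mouse miRNA kit, per the labels' protocols, and the submitters' processing notes name the build mm10. The authors deposited a signal. In each column it is a count times 1 factor (0.296 to 7.93), and 100.00% of 11123 values not raised to a minimum came out whole within 0.1. The authors' normalization is not given in the sources used here. In 9 columns low values stood at 1. The table holds 626 rows and 23 columns, with 602 microRNA rows, 14 unscaled ERCC control rows (6 graded, 8 low) and 10 other rows. Background multiplied by a large factor raises weak microRNAs in that sample.

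Groups came from the cell type and age labels. limma 3.58.1 (R 4.3.3, intensity trend) was fitted to log2(value + 1) with 12 group means for the 302 microRNAs above background (mean plus 2 SD of the low controls) in at least 2 samples. All tests were two-sided at a Benjamini-Hochberg adjusted p of 0.05, and the fit was tested on simulated data. The log2 scale with a pseudocount understates changes of weak microRNAs. A group of 1 sample takes its spread from the rest. Whether samples came from separate animals is not in the labels, so the spread behind the p-values may be technical. Counting error limits values of few counts. Bounds set undetected values at their sample's limit.

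Alternatives changed the scaling, filter, pseudocount (10), background treatment, trend, sample weights, specimen block, title prefix and samples, and edgeR 4.0.16 (quasi-likelihood, TMM) was run on recovered counts. The members and lists were chosen with earlier results of these data known. Named were the members and, for each, the 3 tested probes with the highest r. Because 0 of the 602 identifiers are paired with names in the reference tables, the lists of other vessel-growth microRNAs, other products of the members' loci and cell type markers could not be matched, and 0 of them were tested.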

Additional observations from a re-analysis of the deposited data

How the results depend on the processing

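Of the members' differences between cell types, that of miR-139-5p kept its direction under 17 alternatives and when each of the 23 samples was left out (-3.67 to -3.28). Its call was kept wherever a test was made. The means within single title prefixes, counted among the 17, had no test. This is a description, since miR-139-5p entered the test through EC alone and its AT2 values were not above background. Raising all values to the highest background limit, 95.1, gave its interaction as 0.28 (limma adjusted p = 0.00192). The highest AT2 value of miR-139-5p was 34.7, so all its AT2 values are set equal there. The 0.28 comes from EC values alone, and no interaction is read from it. With equal sample medians the AT2 late minus early value of miR-221-3p was 0.00 (adjusted p = 0.987) and that of miR-218-5p 0.75 (0.0190), because that scaling gives all microRNAs a median of 0.24 in place of -0.64. For other changes the cause was not tested. Deviations from the group means correlated between same-ID samples of the 2 cell types at 0.21 to 0.31 in 6 of 7 pairs and at -0.02 in the other. The labels do not say what the ID marks, so the tests are given without it and whether it pairs the samples is not settled here. As a random replicate block (correlation 0.23) it gave 13 stage-dependent cell type differences in place of 4, and as a fixed replicate block 187 cell type differences in place of 203, with miR-221-3p at 0.56 (limma adjusted p = 0.0588). No other call of a member changed under either block.

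Counts of microRNAs called varied. Without the filter, 467 differed between cell types (59 higher in AT2 cells and 408 lower), 192 with age in EC and 189 among EC stages. At the highest background limit the counts were 110 (48 higher, 62 lower) for cell type, 86 for age in AT2 cells, 72 for age in EC, 47 for the interaction, 85 among AT2 stages and 44 stage-dependent. Divided by microRNA totals they were 58 for age in EC, 5 for the interaction, 38 among EC stages and 2 stage-dependent. edgeR called 72 for age in EC, 12 for the interaction and 1 stage-dependent. Background subtraction gave 93 among AT2 stages and 7 stage-dependent, pseudocount 10 gave 7 and sample weights 16. Without the 3 EC samples that stood apart the interaction count was 31. Scaling moved the split of higher and lower calls: for cell type it was 59 and 144 as deposited, 88 and 102 with equal medians, 89 and 90 with quantiles and, with totals, 154 calls of which 42 were lower. For age in AT2 cells it was 34 and 121, then 77 and 48, 62 and 65, and 20 and 113, and in EC 28 and 84, then 52 and 23, 47 and 44, and 12 and 46. For the interaction it was 9 and 10, then 10 and 7, 12 and 12, and 2 and 3.

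Leaving out 1 sample gave 185 to 212 calls for cell type, 115 to 167 for age in AT2 cells, 66 to 123 for age in EC (66 without EC E16.5 replicate 2), 9 to 25 for the interaction (9 without AT2 E16.5 replicate 1), 116 to 164 among AT2 stages, 51 to 105 among EC stages (51 without EC E16.5 replicate 2) and 2 to 11 stage-dependent (11 without EC P14 replicate 1). Weak microRNAs are limited by counts and by background, above all in EC E18.5 replicate 1.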

Other observations

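Within the specimen IDs whose titles begin with LMM.15, miR-218-5p differed by a mean of -0.37, AT2 minus EC, and was lower in the AT2 sample of 3 of 4. Within those that begin with LMM.16 it differed by 0.56, and 4 of 5 AT2 samples were higher than their EC partner. The stages of the shared IDs differ between these title groups, and no test of the difference was made. miR-139-5p differed by -3.40 and -3.65 in the same 2 groups and miR-132-3p by -1.47 and -1.16.

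Over the 10 EC samples, miR-222-3p and miR-218-5p had a Pearson r of 0.71, against -0.17 over the 13 AT2 samples. miR-222-3p was not above background in EC, and the samples share stages and factors.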
